A study of Homo sapiens with 12 samples.

Results

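The TGFβ superfamily receptors were examined as 10 genes chosen by symbol: TGFBR1, TGFBR2, TGFBR3, ACVR1, ACVR1B, ACVR2A, ACVR2B, BMPR1A, BMPR2 and ENG. All 10 were present among the 19907 gene symbols measured. Messenger RNA was sequenced from MDA-MB-231, an established triple-negative breast cancer line, with either wild-type glucocorticoid receptor (wt-GR) or GR in which editing had replaced a serine by alanine (S134A-GR). After 18 h of starvation in 1% DCC, serum stripped by dextran-coated charcoal, each line was kept for 6 h with vehicle or with TGFβ1 (10 ng/mL). The 4 groups, wt-GR under vehicle, wt-GR under TGFβ1, S134A-GR under vehicle and S134A-GR under TGFβ1, had 3 libraries each, 12 in all. S134A-GR cells were 1 edited clone. By the authors' account, wt-GR cells were 1 non-targeted clone taken from the same population that was put through editing. The mutation and other differences between the clones therefore cannot be told apart.

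Ligands of this family bind a pair of type II receptors, which phosphorylate a pair of type I receptors, and the type I receptors then phosphorylate SMAD proteins that enter the nucleus. TGFβ ligands use TGFBR2 and TGFBR1, activins use ACVR2A or ACVR2B with ACVR1B, and BMPs use BMPR2 or the activin type II receptors with BMPR1A or ACVR1. The co-receptors TGFBR3 (betaglycan) and ENG (endoglin) have no kinase domain and affect which ligands reach the signalling receptors.

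Values are normalized counts, the reads counted for a gene divided by a size factor of its library. Recovered totals ran from 56362036 reads in wt-GR vehicle replicate 1 to 129832227 in wt-GR TGFβ1 replicate 2. These totals exceed the average depth that the labels state, and whether reads or pairs were counted is not given in the sources used here. If the totals are reads, a level of 3 reads equalled 2.15 to 4.89 normalized counts, a floor for counting error only, and all 10 receptor genes passed the filter on low values. Of the 5 markers of MDA-MB-231 (VIM, CD44, NR3C1, CAV1 and MSN), 5 had a mean of at least 50, VIM being the most abundant at 468823, and their sum was 664008 to 872819 per library. Of these, CAV1, NR3C1 and MSN were called between the lines by limma and were lower in S134A-GR cells. NR3C1, the gene of GR, differed by −0.41 log2 units at rest (limma adjusted p = 0.000120) and −0.31 with TGFβ1 (0.00134), and MSN by −0.23 and −0.17. VIM, CD44 and MSN rose with TGFβ1 in each line. For GR protein, the authors reported equal total amounts in the lines by Western blot. The part of the NR3C1 RNA difference in the other results was not tested. A gene total does not read the edited codon and so does not check the mutation.

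How the lines differ was asked first, at rest (under vehicle) and under TGFβ1. Under vehicle, 1 of the 10 receptor genes was higher in S134A-GR cells and 5 were lower at an FDR under 0.05 by limma, where 25.0% of the 18579 genes tested were higher and 26.5% were lower. Under TGFβ1, 1 was higher and 4 were lower, against 23.1% and 25.7% of all genes. All told 9569 and 9070 genes differed between the lines, and a receptor gene called between them is therefore no rarity. The medians over the 10 genes were −0.23 and −0.11 on the log2 scale, beside 0.02 and 0.01 over all genes.

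The response to TGFβ1 was asked within each line. In wt-GR cells 3 of the 10 rose and 1 fell, where 11.2% of all genes rose and 9.82% fell. In S134A-GR cells 3 rose and 1 fell, against 10.0% and 8.69%. The medians of the 10 were −0.02 and 0.03, beside −0.0046 and −0.01 over all genes. The comparisons share libraries, so their values stand side by side and are not independent.

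A stricter rule also asked for a change of at least 1 on the log2 scale in either direction. By it TGFBR3 was the 1 receptor gene called between the lines under vehicle (9.51% of all genes) and the 1 called with TGFβ1 in wt-GR cells (2.29%). The limma count was 0 between the lines under TGFβ1 (8.46% of all genes) and 0 with TGFβ1 in S134A-GR cells (1.66%). Without the size limit 5 and 4 receptor genes passed an unadjusted p under 0.05 there, and edgeR called 5 and 4 and DESeq2 5 and 4 at an FDR under 0.05.

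**Figure D1:**
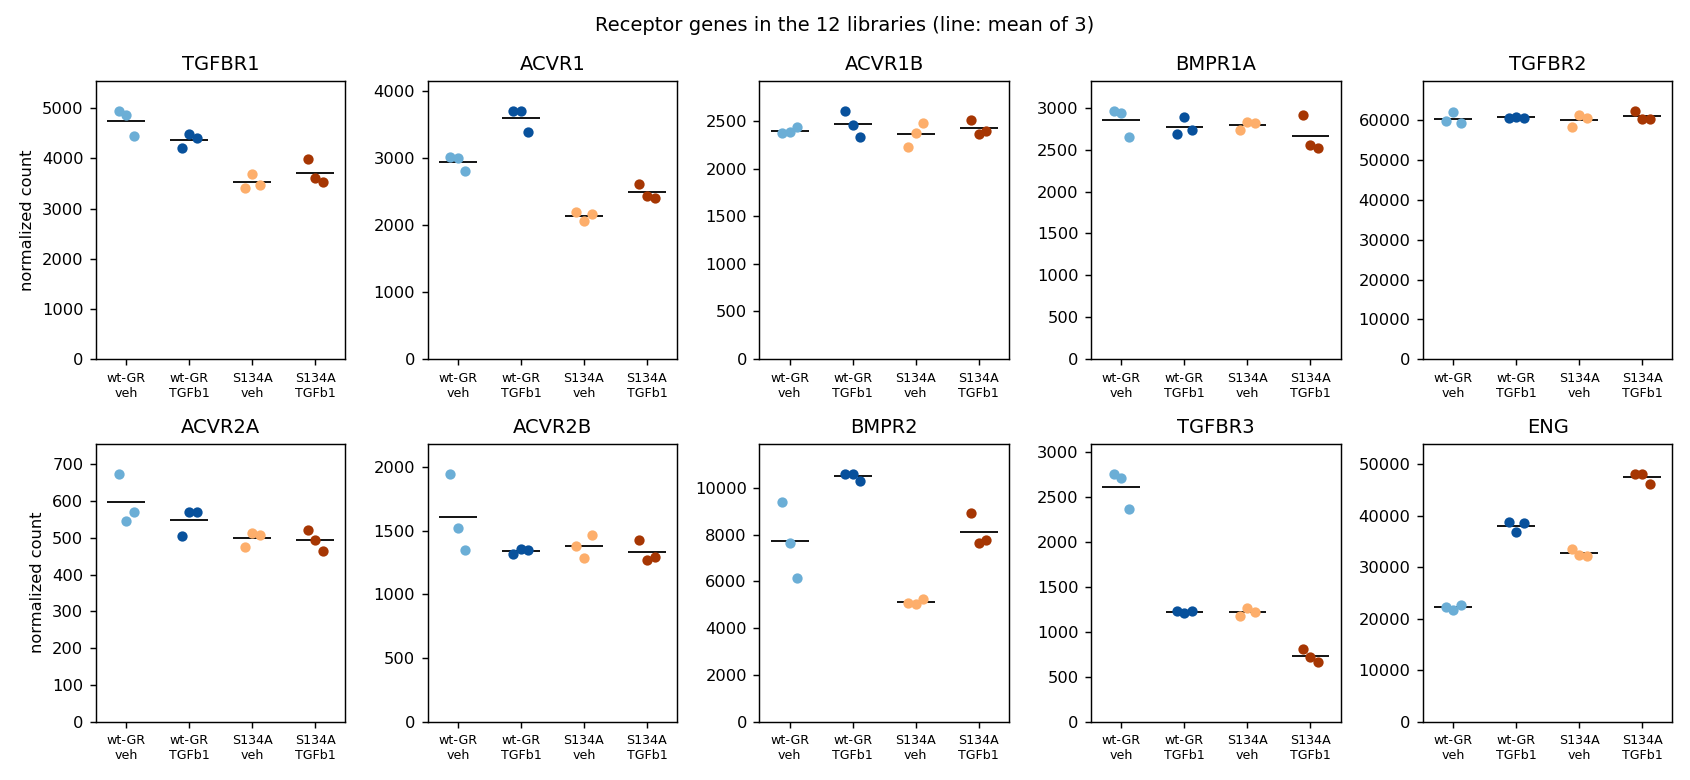
Normalized counts (y axis) of the 10 receptor genes in the 12 libraries by group (x axis), with a point for each library and a line at the mean of 3. TGFBR3 was highest and ENG lowest in wt-GR cells under vehicle, and TGFBR3 was lowest and ENG highest in S134A-GR cells under TGFβ1.

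Among the type I receptors, TGFBR1 is the partner of TGFBR2 in TGFβ signalling and lies on the plus strand of chromosome 9 of GRCh38 from 99104038 to 99154192. It read 4950, 4865 and 4448 in wt-GR cells under vehicle and 4204, 4485 and 4406 under TGFβ1. In S134A-GR cells it read 3410, 3695 and 3476 under vehicle and 3995, 3615 and 3522 under TGFβ1. All 6 libraries of S134A-GR cells were below all 6 of wt-GR cells, while the treatments overlapped within each line. The share of all genes whose groups did not overlap was not counted, here or for the genes below. Between the lines it differed by −0.43 log2 units (SE 0.0559, limma adjusted p = 1.71e-05) at rest and by −0.24 (limma adjusted p = 0.00288) with TGFβ1. The responses to TGFβ1, −0.12 in wt-GR cells (limma adjusted p = 0.149) and 0.07 in S134A-GR cells (limma adjusted p = 0.439), did not pass. Without wt-GR vehicle replicate 3 the former was −0.17 and passed (limma adjusted p = 0.0432, range over left-out libraries 0.0432 to 0.374). The latter ranged from 0.02 to 0.11 over left-out libraries and was not called in any.

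ACVR1 (ALK2), a type I receptor for BMPs, lies on the minus strand of chromosome 2 from 157736251 to 157876330. In wt-GR cells it read 3018, 3007 and 2810 under vehicle and 3703, 3710 and 3396 under TGFβ1. In S134A-GR cells it read 2191, 2068 and 2172 under vehicle and 2623, 2439 and 2410 under TGFβ1. Groups did not overlap in any of the 4 comparisons, and S134A-GR cells given TGFβ1 were still below wt-GR cells given vehicle. ACVR1 was lower in the S134A-GR line, with a log2 difference of −0.46 (SE 0.0515, limma adjusted p = 4.31e-06) at rest and −0.53 (limma adjusted p = 1.11e-06) with TGFβ1. Its log2 rise after TGFβ1 was 0.29 (limma adjusted p = 0.000981) in wt-GR and 0.22 (limma adjusted p = 0.00901) in S134A-GR cells.

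The remaining type I receptors of the set were not called in any of these comparisons. ACVR1B (ALK4), the activin type I receptor, ranged from 2232 to 2611 normalized counts over the 12 libraries. BMPR1A (ALK3), a BMP type I receptor, ranged from 2518 to 2965. Groups overlapped for both genes in each of the 4 comparisons. At rest the 95% interval of the log2 difference between the lines ran from −0.14 to 0.09 for ACVR1B and from −0.16 to 0.10 for BMPR1A.

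Among the type II receptors, TGFBR2 binds TGFβ ligands directly. It read 58245 to 62423 normalized counts over the 12 libraries and was not called in any comparison. Its log2 difference between the lines was −0.01 at rest (95% interval −0.08 to 0.06) and 0.01 with TGFβ1 (−0.06 to 0.07), the latter below 0 with TMM scaling, with edgeR and without S134A-GR TGFβ1 replicate 1. The treatment difference was 0.01 (−0.06 to 0.07) in wt-GR cells and 0.02 (−0.04 to 0.09) in S134A-GR cells. Its SE of 0.0316 was the smallest among the 10 genes.

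BMPR2, the type II receptor used mainly by BMPs, lies on the plus strand of chromosome 2 from 202376327 to 202567751. It read 9416, 7635 and 6145 in wt-GR cells under vehicle and 10586, 10615 and 10290 under TGFβ1. S134A-GR cells had 5085, 5036 and 5245 under vehicle and 8921, 7661 and 7780 under TGFβ1. Neither the treatments nor the lines overlapped, but the wt-GR vehicle libraries lay far apart (mean 7732 ± 1638, SD, n = 3). TGFβ1 raised it by 0.46 log2 units (SE 0.107, limma adjusted p = 0.00677) in wt-GR cells and by 0.66 (limma adjusted p = 0.000537) in S134A-GR cells. The value in wt-GR cells was 0.31 without wt-GR vehicle replicate 3 and 0.62 without replicate 1 (limma adjusted p = 0.00962 and 6.78e-05, range over left-out libraries 6.78e-05 to 0.0269). Its call was lost when the 2 groups were fitted alone (limma adjusted p = 0.0629, range over the alternatives with all libraries 0.00397 to 0.0629). BMPR2 was lower in the S134A-GR line by log2 differences of −0.57 (limma adjusted p = 0.000441) at rest and −0.37 (limma adjusted p = 0.0101) with TGFβ1.

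ACVR2A, an activin type II receptor, read 675, 545 and 569 in wt-GR cells under vehicle and 476, 514 and 508 in S134A-GR cells under vehicle. These groups did not overlap, and replicate 1 of wt-GR cells was the highest. The log2 difference was −0.25 (SE 0.0926, limma adjusted p = 0.0358). It became −0.16 without wt-GR vehicle replicate 1 and was no longer called (limma adjusted p = 0.170, range over left-out libraries 0.0225 to 0.170). Without S134A-GR vehicle replicate 1, 2 or 3 the call was also lost (limma adjusted p = 0.117, 0.0525 and 0.0631). The same held with the 2 groups fitted alone (limma adjusted p = 0.0642) and with a replicate block (0.0535), where the alternatives with all libraries ranged from 0.0234 to 0.0642. In the other 3 comparisons its groups overlapped.

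ACVR2B, the other activin type II receptor, read 1947, 1521 and 1345 in wt-GR cells under vehicle and 1270 to 1466 in the other 9 libraries. Its log2 differences were −0.20 between the lines at rest (limma adjusted p = 0.116) and −0.24 with TGFβ1 in wt-GR cells (limma adjusted p = 0.123). Without wt-GR vehicle replicate 3 they were −0.32 and −0.36 and passed (limma adjusted p = 0.00979 and 0.0120), and without replicate 1 they were −0.06 and −0.09. Over left-out libraries the limma adjusted p ranged from 0.00979 to 0.573 and from 0.0120 to 0.473. Over all genes, wt-GR vehicle replicates 1 and 3 were also the pair farthest apart, with 46.2 as the ratio of chi-square to its degrees of freedom, where the other 11 pairs of replicates gave 9.06 to 23.7. The part of that spread in the results for BMPR2, ACVR2A and ACVR2B was not tested.

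**Figure D2:**
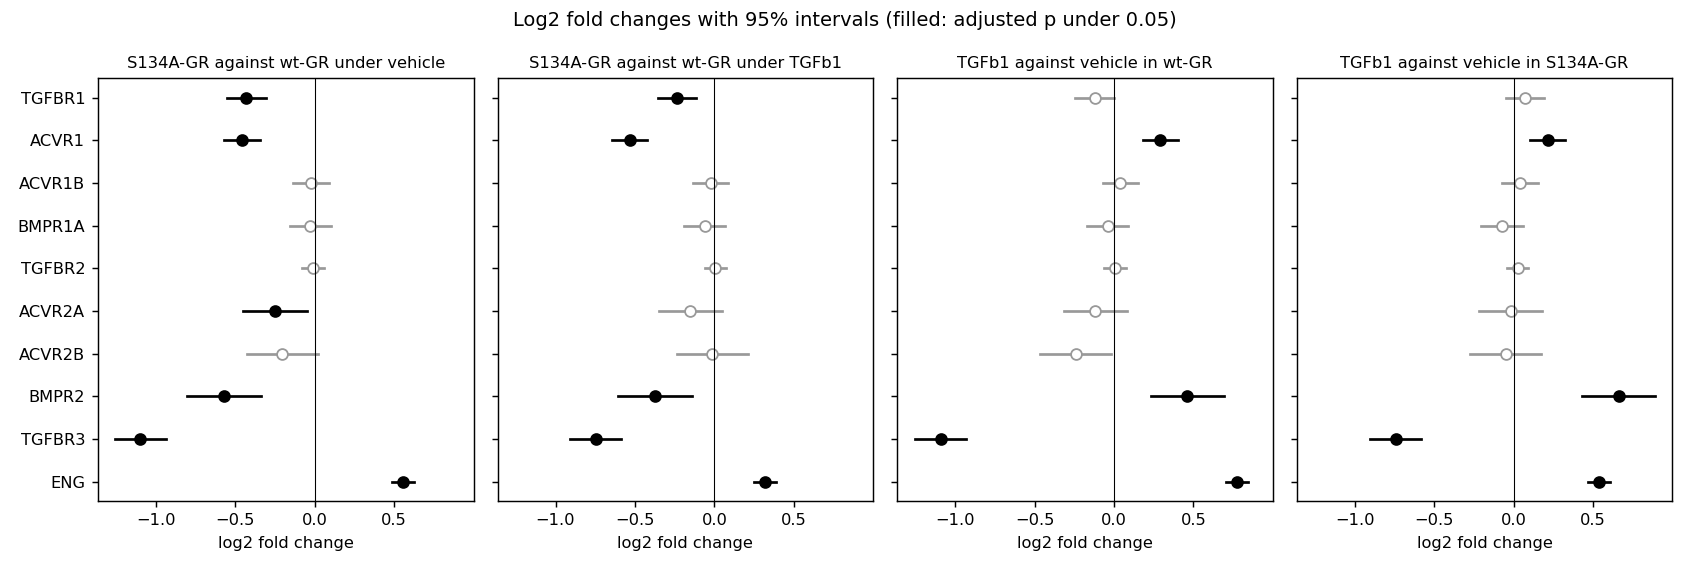
Log2 fold change (x axis) of each receptor gene in 4 comparisons, with bars for the 95% interval of the limma fit and filled points where the adjusted p was under 0.05. TGFBR3 and ENG had opposite signs in each panel, and the intervals of TGFBR2 held 0 in each.

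Of the co-receptors, TGFBR3 presents TGFβ ligands to TGFBR2 and lies on the minus strand of chromosome 1 from 91680343 to 91906335. It read 2762, 2714 and 2368 in wt-GR cells under vehicle and 1234, 1207 and 1229 under TGFβ1. The S134A-GR cells read 1176, 1266 and 1216 under vehicle and 808, 719 and 667 under TGFβ1. No groups overlapped in the 4 comparisons, and S134A-GR cells at rest (mean 1219 ± 45, SD, n = 3) overlapped wt-GR cells given TGFβ1 (mean 1223 ± 14.6). The line difference was −1.10 log2 units (SE 0.0746, limma adjusted p = 3.16e-08) at rest and −0.75 (limma adjusted p = 1.53e-06) with TGFβ1. TGFβ1 lowered it by a log2 change of −1.09 (limma adjusted p = 1.06e-07) in wt-GR and −0.74 (limma adjusted p = 6.69e-06) in S134A-GR cells.

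ENG, best known as an endothelial co-receptor, lies on the minus strand of chromosome 9 from 127815013 to 127854658. In wt-GR cells it read 22391, 21796 and 22631 under vehicle and 38762, 36934 and 38694 under TGFβ1. In S134A-GR cells it read 33648, 32409 and 32202 under vehicle and 48241, 48111 and 46286 under TGFβ1. No groups overlapped, and the order from low to high was wt-GR vehicle, S134A-GR vehicle, wt-GR TGFβ1, S134A-GR TGFβ1. TGFβ1 raised it by 0.78 log2 units (SE 0.0331, limma adjusted p = 8.05e-10) in wt-GR and 0.54 (limma adjusted p = 4.42e-08) in S134A-GR cells. The line difference was 0.56 (limma adjusted p = 8.68e-09) at rest and 0.32 (limma adjusted p = 2.24e-06) with TGFβ1.

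Whether the lines differ in their response was tested as S134A-GR minus wt-GR in the same fit. ENG was the 1 of 10 receptor genes called, where 0.414% of all genes were. Its log2 difference was −0.24 (SE 0.0469, 95% interval −0.34 to −0.14, limma adjusted p = 0.0446), a smaller rise in S134A-GR cells. As single libraries were left out it stayed between −0.26 and −0.22, but the call was kept only without wt-GR vehicle replicate 3 (limma adjusted p from 0.0321 to 0.162 over the 12). Without wt-GR vehicle replicates 1 and 2 in turn it was 0.0740 and 0.161, and without wt-GR TGFβ1 replicates 1, 2 and 3 it was 0.162, 0.0524 and 0.144. Without S134A-GR vehicle replicates 1, 2 and 3 it was 0.162, 0.114 and 0.0856, and without those of S134A-GR TGFβ1 0.0645, 0.0797 and 0.108. The call was also lost with no filter beyond 1 read (limma adjusted p = 0.0552) and with a replicate block (0.0789), where the alternatives with all libraries ranged from 0.000805 to 0.0789. For TGFBR3 the difference was 0.35 (95% interval 0.12 to 0.58, limma adjusted p = 0.283). It was 0.19 for TGFBR1 (95% interval 0.02 to 0.36, limma adjusted p = 0.474). BMPR2 had 0.20 (−0.13 to 0.53, limma adjusted p = 0.716). As single libraries were left out, TGFBR3 ranged from 0.28 to 0.42, TGFBR1 from 0.14 to 0.24 and BMPR2 from 0.05 to 0.35.

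Levels of different genes were compared as normalized counts per kilobase of exon. ENG (mean 9160) and TGFBR2 (mean 8844) held the first 2 ranks among the 10 genes in each library. BMPR2, TGFBR1 and ACVR1B followed with means of 629, 512 and 427 per kilobase, and ACVR2B (90.0) and ACVR2A (82.9) had the lowest means. The order of the middle genes differed between groups, and in S134A-GR cells under vehicle TGFBR1 (441 per kilobase) and ACVR1B (418) had higher means than BMPR2 (410). On this scale ENG went from 5800 per kilobase in wt-GR cells under vehicle to 12382 in S134A-GR cells under TGFβ1, while TGFBR3 went from 305 to 85.3. ENG ranked above TGFBR2 in the 6 libraries given TGFβ1 and in S134A-GR vehicle replicate 1. By the length of the MANE Select transcript, ENG ranked above TGFBR2 in the 3 libraries of S134A-GR cells under TGFβ1 alone, and ACVR1 moved to rank 3 in each library, so the order depends on the length used.

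**Figure D3:**
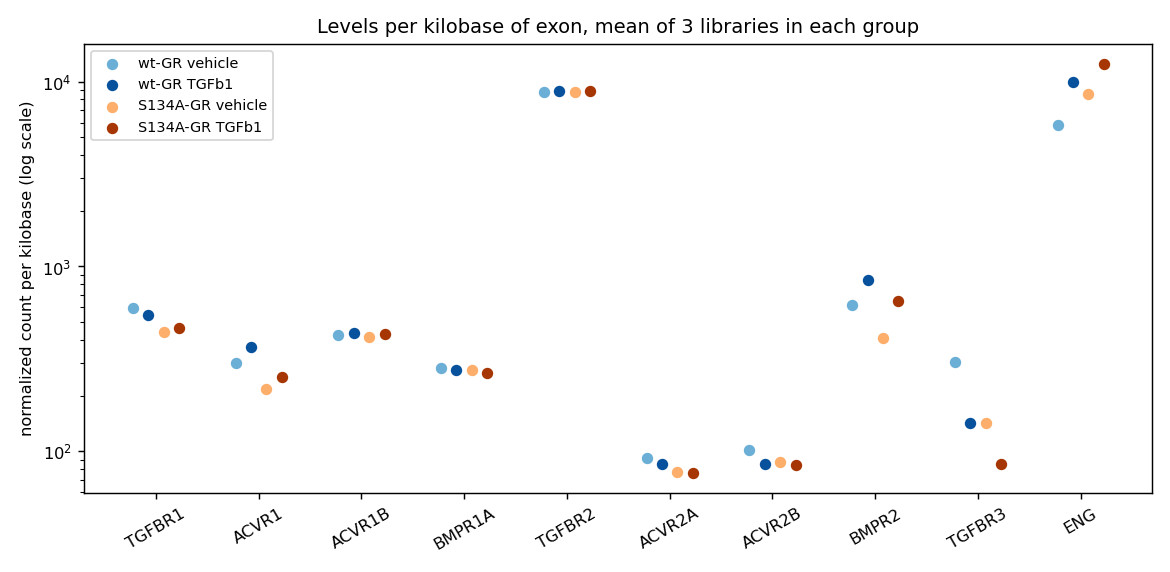
Mean normalized count per kilobase of exon (y axis, log scale) of the 10 receptor genes, with a point for each group of 3 libraries. TGFBR2 and ENG lay above the other 8 in each group, and TGFBR3 and ENG spread most between groups.

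Each receptor gene was set beside the 10 tested genes on either side of it in genome order. Of all genes tested, 25.0% were called higher and 26.5% lower between the lines at rest, and 23.1% and 25.7% with TGFβ1. For ENG, 14 of the 20 neighbours were called higher in S134A-GR cells at rest, and their median log2 difference was 0.42, beside 0.56 for ENG. For ACVR1, 11 of 20 were called lower, with a median of −0.49, beside −0.46 for ACVR1 itself. With TGFβ1 the medians were 0.35 and −0.54, beside 0.32 for ENG and −0.53 for ACVR1. Neighbours of ACVR2A were lower in 15 of 20 cases at rest (median −0.47, beside −0.25 for ACVR2A) and in 14 with TGFβ1 (−0.35, beside −0.15).

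TGFBR1 had the opposite sign to the median of its neighbours in both conditions. Its neighbours were higher in 13 of 20 cases at rest with a median of 0.20, where TGFBR1 was at −0.43, and in 13 with TGFβ1 (0.21, where TGFBR1 was at −0.24). They were called lower in 2 cases at rest and 3 with TGFβ1. TGFBR3 was below the median of its neighbours (−1.10 against −0.36 at rest and −0.75 against −0.41 with TGFβ1), and so was BMPR2 (−0.57 against −0.23 at rest and −0.37 against −0.27 with TGFβ1). Neighbours called lower at rest and with TGFβ1 numbered 8 and 10 for TGFBR3 and 10 and 10 for BMPR2. Those called higher numbered 0 and 0, then 2 and 4. The other 4 genes were not called between the lines. Of the neighbours of TGFBR2, 12 and 13 were called lower at rest and with TGFβ1, and 3 and 1 higher. For ACVR1B these were 8 and 8 lower and 2 and 1 higher. ACVR2B had 7 and 7 lower and 5 and 5 higher, and BMPR1A 4 and 2 lower and 6 and 6 higher. TGFBR2 stood at −0.01 against −0.26 at rest and 0.01 against −0.23 with TGFβ1. BMPR1A stood at −0.03 against −0.01 at rest and −0.06 against 0.06 with TGFβ1. Each was across 0 from its neighbours' median with TGFβ1. As single libraries were left out, the value of BMPR1A with TGFβ1 ranged from −0.13 to −0.02. ACVR1B stood at −0.02 against −0.03 at rest and −0.02 against −0.22 with TGFβ1, and ACVR2B at −0.20 against −0.16 at rest and −0.01 against −0.10 with TGFβ1. The part of regional differences between the clones in these results was not tested.

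**Figure D4:**
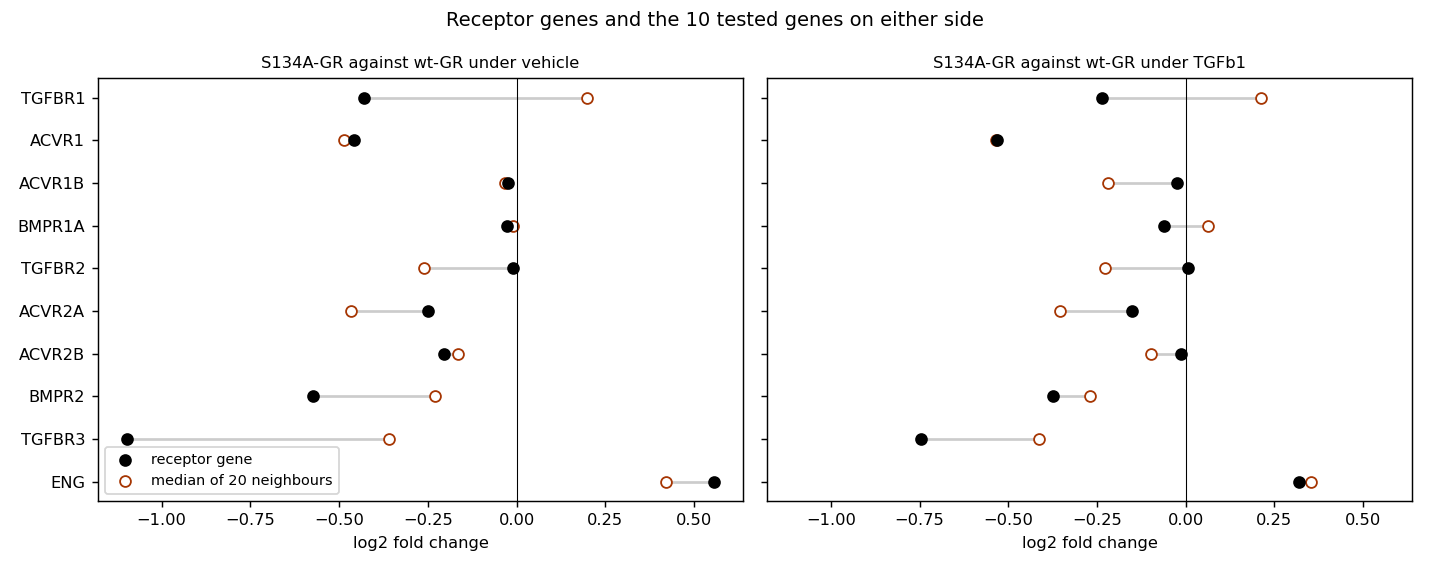
Log2 fold change of the S134A-GR line over the wt-GR line (x axis) for each receptor gene (filled) and the median of its 20 tested neighbours (open), under vehicle and under TGFβ1. TGFBR1 lay across 0 from its neighbours' median in both conditions, and TGFBR2 and BMPR1A, which were not called, did so with TGFβ1.

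Promoter sequences are shown for ENG, TGFBR3 and BMPR2, which differed most between the lines at rest and also changed with TGFβ1 in each line. With TGFβ1, ACVR1 (−0.53) differed more between the lines than BMPR2 (−0.37) or ENG (0.32). Each has 1 window of 300 bases around its start in RefSeq (GRCh38.p14), where all 10 receptor genes matched 21 windows in all. Capitals mark CAGAC, a core of SMAD binding sites, GGCGCC, a GC-rich SMAD site, and AGAACA, a hexamer bound by GR, on either strand. The ENG window is chr9:127854609-127854908 on the minus strand, that of TGFBR3 is chr1:91886102-91886401 on the minus strand, inside the annotated gene, and that of BMPR2 is chr2:202376077-202376376 on the plus strand.
ENG: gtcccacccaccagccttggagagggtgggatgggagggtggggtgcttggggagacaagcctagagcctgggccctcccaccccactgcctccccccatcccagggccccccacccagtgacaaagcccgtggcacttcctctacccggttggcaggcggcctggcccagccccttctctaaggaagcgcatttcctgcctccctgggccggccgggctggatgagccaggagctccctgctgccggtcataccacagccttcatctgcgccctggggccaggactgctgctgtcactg
TGFBR3: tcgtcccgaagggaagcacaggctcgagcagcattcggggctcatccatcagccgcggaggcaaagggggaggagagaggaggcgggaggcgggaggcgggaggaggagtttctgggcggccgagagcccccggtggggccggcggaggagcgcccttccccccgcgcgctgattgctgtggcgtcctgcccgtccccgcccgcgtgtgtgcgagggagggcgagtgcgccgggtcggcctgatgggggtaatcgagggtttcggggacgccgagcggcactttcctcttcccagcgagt
BMPR2: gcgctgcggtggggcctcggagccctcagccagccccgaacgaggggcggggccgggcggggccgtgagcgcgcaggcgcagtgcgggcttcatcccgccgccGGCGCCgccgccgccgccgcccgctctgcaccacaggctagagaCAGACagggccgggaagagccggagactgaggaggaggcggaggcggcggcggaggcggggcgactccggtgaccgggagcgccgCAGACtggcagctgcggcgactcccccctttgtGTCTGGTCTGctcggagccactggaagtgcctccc
BMPR2 held 4 matches to CAGAC and 1 to GGCGCC, and the windows of ENG and TGFBR3 held none of the 3 motifs. Of the 35116 promoter windows of the same length, 45.3% held CAGAC at least 1 time, 19.2% GGCGCC and 14.8% AGAACA. Among the 21 windows of the 10 receptor genes, 9 held CAGAC, 4 held GGCGCC and 4 held AGAACA. How many of all windows held 4 matches to CAGAC was not counted. No base was shared between matches of different motifs in the windows of the 10 receptor genes. A match is a description of letters.

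The genes whose pattern over the 12 libraries was most like that of these 3 receptor genes were found by the root mean square difference of centred log2 values among 13280 other genes with a mean of at least 50. For ENG these were ACOX3 (0.0404), VDR (0.0856) and CHST3 (0.0998). For TGFBR3 they were EVI2B (0.112), CYP1B1 (0.162) and TBC1D8 (0.165). For BMPR2 they were ABCA1 (0.0828), ITGAV (0.1004) and DYSF (0.116). ACOX3 averaged 1173, 2010, 1751 and 2519 normalized counts in wt-GR vehicle, wt-GR TGFβ1, S134A-GR vehicle and S134A-GR TGFβ1, the same order of groups as ENG.

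Counts for further genes of the pathway are to be read beside the shares of all genes tested, which were 25.0% higher and 26.5% lower between the lines at rest and 23.1% and 25.7% with TGFβ1. For the rise and fall with TGFβ1 they were 11.2% and 9.82% in wt-GR and 10.0% and 8.69% in S134A-GR cells. The share of all genes called for a difference between the responses was 0.414%. Of the 4 other receptors of the family, BMPR1B, a BMP type I receptor, read 216 to 269 in the 6 wt-GR libraries and 383 to 501 in the 6 S134A-GR libraries. It was the 1 called between the lines at rest (0.77 log2 units, limma adjusted p = 1.38e-05), and with TGFβ1 it was higher and ACVR1C, named after its values were seen, was lower. ACVRL1, a type I receptor that pairs with ENG in endothelium, read 71.8 to 148 and was the 1 called with TGFβ1, in S134A-GR cells (−0.67, limma adjusted p = 0.0205). Its log2 change in wt-GR cells was −0.49 (limma adjusted p = 0.0751). AMHR2, the receptor for anti-Müllerian hormone, read at most 5.06, near the floor.

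Of 12 further co-receptors and decoys, 11 were in the files and 8 were tested. The 3 called by limma at rest were all higher in S134A-GR cells. They were the decoy receptor BAMBI (0.90 log2 units, limma adjusted p = 1.52e-06), NRP1 (0.38) and RGMA, whose mean was 14.7 and which was named after its values were seen. With TGFβ1 3 were higher and 2 lower between the lines. NRP2 rose and NRP1 fell with TGFβ1 in each line, NRP2 from 2573, 2263 and 2194 to 7733, 7622 and 7413 in wt-GR cells and from 2336, 2233 and 2282 to 6721, 5966 and 6060 in S134A-GR cells.

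Of 26 ligand genes, 21 were tested. Between the lines 5 were higher and 8 lower at rest, and 5 were higher and 7 lower with TGFβ1, where 25.0% and 26.5%, then 23.1% and 25.7%, of all genes were. With TGFβ1 4 rose and 6 fell in wt-GR cells, and 5 rose and 2 fell in S134A-GR cells. TGFB1 itself read 13275, 13394 and 15493 in wt-GR cells under vehicle and 27250, 26773 and 26419 under TGFβ1. In S134A-GR cells it read 11475, 10871 and 10471, then 14879, 15415 and 14697. The treatments did not overlap in either line, and the responses differed by −0.48 log2 units (limma adjusted p = 0.0126). INHBB (0.97, from −1.13 in wt-GR and −0.16 in S134A-GR cells), LEFTY1 and LEFTY2, the last with a mean of 30.8 and named after its values were seen, also differed in response. LEFTY1 read 45.6, 50.7 and 43.2, then 375, 307 and 321, in wt-GR cells and 2.86 to 10.1, near the floor, in S134A-GR cells.

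Of 12 secreted ligand antagonists, 10 were tested, and 3 were higher and 3 lower in S134A-GR cells at rest, with 2 higher and 3 lower with TGFβ1. NOG, which traps BMPs, was higher (0.74 log2 units at rest, 0.64 with TGFβ1), and FST, which traps activins, was lower (−0.80 at rest, −1.67 with TGFβ1). With TGFβ1 3 rose and 1 fell in wt-GR cells, and 2 rose and 1 fell in S134A-GR cells. FSTL3 rose by 1.73 and 1.64 in wt-GR and S134A-GR cells. FST was the 1 gene whose response differed (−0.87, limma adjusted p = 0.0121).

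Of the 6 signal-transducing SMAD genes, 1 was higher (SMAD1) and 2 were lower (SMAD3 and SMAD2) in S134A-GR cells at rest, and 1 was higher (SMAD1) and 1 lower (SMAD3) with TGFβ1. SMAD3, which carries signals of TGFβ and activin receptors, was the 1 called with TGFβ1 in each line, at −0.37 log2 units in wt-GR and −0.27 in S134A-GR cells. Median log2 changes were −0.13 and −0.03 between the lines under vehicle and TGFβ1 and −0.04 and −0.01 with TGFβ1 in wt-GR and S134A-GR cells.

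Of 21 genes of receptor turnover and trafficking, all tested, 3 were higher and 10 lower in S134A-GR cells at rest, and 4 were higher and 10 lower with TGFβ1. With TGFβ1 7 rose and 3 fell in wt-GR cells, and 8 rose and 1 fell in S134A-GR cells. PMEPA1 and SMAD7, which act against receptor signalling, rose by 2.90 and 1.19 log2 units in wt-GR and by 2.18 and 1.32 in S134A-GR cells. CAV1 was lower in S134A-GR cells (−0.70 at rest, −0.61 with TGFβ1), and NEDD4L, a ubiquitin ligase, fell with TGFβ1 in each line (−0.47 and −0.39). On the log2 scale the list had medians of −0.11 and −0.08 between the lines under vehicle and TGFβ1 and 0.05 and 0.11 with TGFβ1 in wt-GR and S134A-GR cells.

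Of 13 genes of non-SMAD signalling, all tested, 2 were higher and 6 lower in S134A-GR cells at rest, and 2 and 6 with TGFβ1. With TGFβ1 3 rose and 1 fell in wt-GR cells, and 1 rose and 2 fell in S134A-GR cells. LIMK1, a kinase of the actin cytoskeleton, rose by 0.43 and 0.39 log2 units. For this list the median log2 changes were −0.08 and −0.10 between the lines under vehicle and TGFβ1 and 0.04 and 0.08 with TGFβ1 in wt-GR and S134A-GR cells.

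Of 9 target genes of TGFβ1 and BMP, all tested, 6 rose and 1 fell in wt-GR cells, and 6 rose and 1 fell in S134A-GR cells. ID3 fell by a log2 change of −0.70 and −1.13. JUNB (−0.92) and PMEPA1 (−0.72) rose less in S134A-GR cells by the test of the difference. Between the lines 1 was higher and 3 lower at rest, and the 6 called with TGFβ1 were all lower. SMAD7 and PMEPA1 are on this list and on that of turnover. The list had median log2 changes of −0.11 and −0.31 between the lines under vehicle and TGFβ1 and 0.86 and 0.72 with TGFβ1 in wt-GR and S134A-GR cells.

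Of 5 markers of endothelium, where ENG is usually made, 4 had a mean of at least 50. PECAM1 was the most abundant at 1097, followed by VWF at 290, CDH5 at 112 and KDR at 74.3. TEK averaged 33.7, and none of the 5 was at 0 in all libraries. Their sum was 2003, 2126 and 1969 in wt-GR cells under vehicle and 1597, 1605 and 1597 under TGFβ1. In S134A-GR cells it was 1568, 1646 and 1659 under vehicle and 1217, 1253 and 1041 under TGFβ1. PECAM1 made up most of the sum. CDH5 averaged 187, 215, 19.0 and 28.7 in wt-GR vehicle, wt-GR TGFβ1, S134A-GR vehicle and S134A-GR TGFβ1. Between the lines it differed by −3.28 log2 units at rest (limma adjusted p = 2.26e-07) and −2.89 with TGFβ1, and PECAM1 by −0.25 (0.0104) and −0.34, where ENG differed by 0.56 and 0.32. VWF was also called lower in S134A-GR cells with TGFβ1. The markers moved in different directions with TGFβ1, PECAM1 and VWF falling in each line and TEK, named after its values were seen, rising by 1.70 log2 units in wt-GR cells (limma adjusted p = 0.00144) and 1.66 in S134A-GR cells (0.00194). The markers' part in the result was not tested.

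Of the other markers, ESR1 and CDH1 averaged 3.26 and 6.17 normalized counts among 5 luminal and epithelial genes, whose sum was 1394 to 2109. In that order of groups GATA3 averaged 808, 712, 1093 and 882, and EPCAM 1024, 1018, 378 and 339. EPCAM was lower in S134A-GR cells at rest (−1.44 log2 units, limma adjusted p = 5.66e-08) and with TGFβ1 (−1.58), while GATA3 (0.43, then 0.30) and FOXA1 (0.34, then 0.51) were higher. With TGFβ1, ESR1, near the floor, was called higher in wt-GR cells and GATA3 lower in S134A-GR cells. ESR1, and LUM below, were named for their calls after their values were seen. Among 4 fibroblast genes LUM and DCN averaged 1.17 and 1.13, and PDGFRB was the most abundant at 2527. Their sum was 2195, 2158 and 2131 in wt-GR cells under vehicle and 3976, 3736 and 4040 under TGFβ1, and 1847, 1957 and 1948, then 2183, 2296 and 2047, in S134A-GR cells. PDGFRB rose with TGFβ1 by 0.86 log2 units in wt-GR and 0.18 in S134A-GR cells, and its responses differed by −0.68 (limma adjusted p = 0.000909). It was lower in S134A-GR cells at rest (−0.16) and with TGFβ1 (−0.84), as was PDGFRA, which had a mean of 13.7 and was named after its values were seen. LUM, near the floor, was called lower at rest only. Among 3 leukocyte genes PTPRC averaged 3.95, CD68, which many cell types make, was the most abundant at 34371, and the sum was 27964, 27949 and 28259 in wt-GR cells under vehicle and 27811, 26590 and 26792 under TGFβ1. In S134A-GR cells the sum was 42867, 40573 and 40906, then 42225, 41604 and 39128, and no library overlapped between the lines. CD68 was higher in that line by 0.56 log2 units at rest (limma adjusted p = 1.62e-08) and 0.60 with TGFβ1. CD14, named after its values were seen, was lower at rest, with means of 30.4 and 4.62 (−2.58, limma adjusted p = 0.000245), the latter near the floor. None of these was at 0 in all libraries, and their part in the results was not tested.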

How the data were processed

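The 12 libraries were read as 75-base pairs. The authors used Trimmomatic for trimming, HISAT2 for alignment to hg38, featureCounts for counting and DESeq2 1.22.2 for size factors, so the deposited signal is normalized counts. Annotation, strand setting and versions of HISAT2 and featureCounts are not given in the sources used here. Reads were recovered from the step between values (100% whole within 0.01).

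Genes with at least 10 reads over the 12 libraries were fitted with limma 3.58.1 (R 4.3.3) on log2 of the value plus 1, with 4 group means, a trend and Benjamini-Hochberg adjustment over all 18579 genes. Such changes are understated for low genes. Alternatives were pseudocounts of 0.5 and 16, no filter beyond 1 read, at least 10 reads in 3 libraries, TMM scaling, edgeR 4.0.16, DESeq2 1.42.0, a replicate block, only the groups compared, a log2 change of at least 1, and each library left out. The labels do not say whether replicates were separate cultures, so p-values measure only the spread between these samples.

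Positions and lengths came from GENCODE on GRCh38. From each list, up to 3 called genes per direction with the largest change and a mean of at least 50 could be named. A median of log2 changes is given only for a list whose tested genes all had a mean of at least 50, a rule set after the values were seen. HJV and CCN2 were matched as HFE2 and CTGF. CFC1, GDF1, GDF6, GDF7, GDF10, GREM1, CER1, PGR and CD3E were not analysed here. The members and lists were chosen with earlier results of these data known. A planned comparison of the receptor proteins was not done. A gene planned for the list of targets is not reported here, and the list's counts and medians leave it out.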

Additional observations from a re-analysis of the deposited data

Results flagged for a closer look

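ENG was the receptor gene whose response to TGFβ1 differed between the lines by a test of the difference itself. The log2 change in S134A-GR minus that in wt-GR was −0.24 (limma adjusted p = 0.0446), and the call was lost without 11 of the 12 libraries in turn. The cause was not tested.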

How the results depend on the processing

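Of 20 calls of a receptor gene over the 5 comparisons, 17 kept their direction and side of the threshold under the alternatives that refitted the genes or left out a library, and 3 lost the call under at least 1 of these (ACVR2A between the lines at rest, BMPR2 with TGFβ1 in wt-GR cells, ENG in the difference). Of 30 that were not called, 3 passed and 13 changed sign under at least 1. With a log2 change of at least 1 also asked for, 2 of the 20 calls remained, both of TGFBR3, and limma called 1, 0, 1, 0 and 0 receptor genes and 1767, 1571, 425, 309 and 11 of all genes, for the lines at rest, the lines with TGFβ1, TGFβ1 in wt-GR, TGFβ1 in S134A-GR and the difference, since the rule is stricter. For the difference, limma called 0 receptor genes with no filter beyond 1 read (3 at an unadjusted p under 0.05) and 0 with a replicate block (3 at an unadjusted p under 0.05), where edgeR and DESeq2 called 1 each, and DESeq2 called 208 of all genes in place of 77. Leaving out 1 library gave 0 to 1 receptor genes and 22 to 166 of all genes. Replicate numbers were not taken as pairing, since correlations of deviations between same-numbered libraries were −0.10 to 0.13 and 1 of 12 libraries was closest to its own number. The causes were not tested.

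TGFBR2 between the lines with TGFβ1 was −0.00418 with TMM scaling and −0.00411 with edgeR. Log2 differences that changed sign as single libraries were left out had these ranges. Between the lines at rest, TGFBR2 ranged from −0.0264 to 0.0106, ACVR1B from −0.0596 to 0.0172 and BMPR1A from −0.0799 to 0.00111. With TGFβ1, TGFBR2 ranged from −0.00901 to 0.0161, ACVR1B from −0.0622 to 0.0166 and ACVR2B from −0.0662 to 0.0193. After TGFβ1 in wt-GR cells, TGFBR2 ranged from −0.00594 to 0.0263 and ACVR1B from −0.000685 to 0.0781. In S134A-GR cells, ACVR1B ranged from −0.00131 to 0.0755 and ACVR2A from −0.0601 to 0.0256. For the difference, TGFBR2 ranged from −0.00366 to 0.0334, ACVR1B from −0.0413 to 0.0400 and BMPR1A from −0.101 to 0.0184. The lowest receptor value was 464 normalized counts, well above the floor.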
